A study of Mus musculus with 16 samples.

Results

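The genes described here are 39 mouse genes of DNA replication and mitosis, given as a list of names. No measured value entered the rule for the list, but it was chosen with earlier results of these data known. All 39 were among the 17370 genes of the deposited table, and 33 of them were among the 15411 genes that passed a filter on low counts and were tested. The other 6 (Ccnb1, Plk1, Aurkb, Bub1, Cenpe and Cenpf) are described by their levels. The study sequenced quadriceps muscle of mice, 4 libraries in each of 4 groups and 16 in all. Healthy placebo and injured placebo are the quadriceps of the uncut and of the cut side of mice whose anterior cruciate ligament (ACL), a ligament inside the knee, was transected and which then drank 0.5% sucrose for 7 days. Healthy inhibitor and injured inhibitor are the same muscles of mice that drank a CSF1-R inhibitor at 40 mg/kg for those 7 days. CSF1-R is the receptor through which macrophages receive the growth factor CSF1. The library names join a left healthy and a right injured quadriceps into 8 animals, while the series text speaks of muscle before and after transection. The labels call the inhibitor groups CSF1R treated, which was read as the inhibitor of the protocol. The compound, the strain, the sex and the age of the mice are not given in the sources used here. By these names all 4 groups come from mice with a cut ligament, so healthy names the muscle and not an unoperated mouse.

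Replication starts when the MCM2 to MCM7 ring, the helicase that unwinds DNA, is loaded at origins and switched on with the GINS complex, and it continues with the sliding clamp PCNA and a supply of deoxynucleotides. In mitosis CDK1 with cyclin B, the Polo-like and Aurora kinases, condensin, kinetochore proteins and the anaphase-promoting complex condense, attach, separate and divide the chromosomes. Mature muscle fibres have left the cell cycle, so in muscle these genes are mostly known from the other cells of the tissue, such as satellite cells (the muscle stem cells), fibroblast-like progenitors, endothelial cells and immune cells. Transcription of the replication genes is known to be driven by E2F factors, and that of the mitotic genes by the complexes that bind the cell cycle homology region (CHR) together with NF-Y, which binds CCAAT boxes.

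Promoter stretches of 5 members are shown because these members span both kinds of gene and, in the libraries described next, had nearly the same pattern. Each is the 250 bases before the annotated start from the RefSeq promoter table (GRCm38.p6), 5′ to 3′ on the gene's strand. Capitals mark the E2F letters (TTTCCCGC, TTTCGCGC, TTTGCCGC or TTTGGCGC), the CHR letters (TTTGAA or TTCGAA) and CCAAT, each on either strand. The first pair are helicase genes and the others are mitotic.
Mcm5 (chr8:75109259-75109508, plus strand): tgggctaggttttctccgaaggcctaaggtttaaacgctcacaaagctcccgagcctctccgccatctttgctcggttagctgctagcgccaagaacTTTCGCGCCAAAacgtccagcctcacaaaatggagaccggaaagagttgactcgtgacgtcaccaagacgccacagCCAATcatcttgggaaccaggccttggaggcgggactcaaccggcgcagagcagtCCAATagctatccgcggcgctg
Mcm6 (chr1:128359706-128359955, minus strand): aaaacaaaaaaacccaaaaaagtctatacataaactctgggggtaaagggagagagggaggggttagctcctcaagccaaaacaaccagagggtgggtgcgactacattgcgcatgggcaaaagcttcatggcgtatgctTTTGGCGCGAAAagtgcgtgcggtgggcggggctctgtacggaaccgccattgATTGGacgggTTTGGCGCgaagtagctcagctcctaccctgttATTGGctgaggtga
Cdk1 (chr10:69352913-69353162, minus strand): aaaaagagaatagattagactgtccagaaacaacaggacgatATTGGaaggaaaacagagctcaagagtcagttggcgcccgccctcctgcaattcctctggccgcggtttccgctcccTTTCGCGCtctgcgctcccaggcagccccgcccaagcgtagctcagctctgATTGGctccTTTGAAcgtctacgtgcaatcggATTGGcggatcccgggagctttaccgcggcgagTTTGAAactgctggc
Cdc20 (chr4:118437344-118437593, minus strand): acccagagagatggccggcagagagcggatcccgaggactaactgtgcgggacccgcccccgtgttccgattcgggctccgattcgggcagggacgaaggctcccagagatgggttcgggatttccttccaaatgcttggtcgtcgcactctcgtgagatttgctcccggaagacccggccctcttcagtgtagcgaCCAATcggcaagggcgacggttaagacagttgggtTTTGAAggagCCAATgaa
Top2a (chr11:99024190-99024439, minus strand): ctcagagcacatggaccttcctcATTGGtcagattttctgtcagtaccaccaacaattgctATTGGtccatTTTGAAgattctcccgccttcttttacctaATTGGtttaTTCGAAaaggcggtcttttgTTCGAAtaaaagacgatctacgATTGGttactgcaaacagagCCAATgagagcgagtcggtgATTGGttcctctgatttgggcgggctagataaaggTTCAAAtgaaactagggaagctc
Mcm5 and Mcm6 held E2F letters, 2 and 3 matches, and no CHR letters in these stretches. Because one E2F spelling can run into the reverse of another, the 12-base runs that begin 153 bases before the Mcm5 start and 110 bases before the Mcm6 start each count as 2 overlapping matches. Cdc20 held CHR letters 18 bases before its start between CCAAT boxes that begin 53 and 8 bases before it. Cdk1, the kinase that drives entry into mitosis, held both kinds: E2F letters at 131 bases and CHR letters at 71 and 15 bases before the start. Top2a held 4 CHR matches and 6 CCAAT boxes.

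Of the 39 members, 32 had an entry in that promoter table, whose windows run 300 bases (250 before to 50 after a start). CHR letters stood in the windows of 18 of 22 mitosis and chromosome members (81.8%), of 2 of 10 replication members (20%), namely Mcm2 and Mcm7, and of 21.7% of the 27025 genes of the table. CHR letters together with CCAAT stood in 17 of the 22 (77.3%), in 2 of the 10 and in 9.65% of all genes. CCAAT, with or without CHR letters, was common in both classes, with 19 of 22 (86.4%) and 8 of 10 (80%) against 41.1% of all genes. E2F letters stood in 4 of 10 replication members (Mcm3, Mcm5, Mcm6 and Mcm7), in 1 of 22 others (Cdk1) and in 2.6% of all genes. A gene with several windows counts where any window holds the letters, as was possible for 15.4% of all genes and for 9.38% of members. These matches describe letters and not bound sites.

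Levels are given as CPM, counts per 1 M (mega) of the scaled library size. Library totals were 20.12 to 27.13 M (mega) counts, and 3 counts, the most that a count of 0 allows, correspond to 0.109 to 0.159 CPM. Such a limit covers counting error only. Muscle fibre genes (10 genes, led by Myh4 and Acta1) summed to 108458 CPM or more in every library, so the defining genes of the labelled tissue were present throughout. Of the 16 libraries, 3 stood apart and are named where a result rests on them: healthy placebo 4, injured placebo 2 and injured placebo 3. The 20 macrophage markers, led by Lyz2 and Csf1r, summed to 508.0, 979.8 and 876.3 CPM in these 3, in that order, against 35.2 to 165.5 CPM in the other 13 libraries. All 20 were in the table and all 20 were tested. Lyve1, Cd163 and Mertk of this list did not have these 3 libraries as their highest, unlike its other genes. Lyve1 was at 6.04, 6.33 and 10.4 CPM in the 3, against 7.33 CPM in injured placebo 1. Cd163 was at 8.03, 6.07 and 14.6 CPM in them, against 12.8 CPM in injured placebo 1. Mertk was at 5.20, 4.76 and 4.85 CPM, against 5.36 CPM in that library.

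The members were high in those same libraries across most of the list. For 29 of 39 members, the 3 highest of all 16 libraries were healthy placebo 4, injured placebo 2 and injured placebo 3. Among the genes tested, this held for 23 of 33 members and for 1688 of 15411 genes in all (11.0%). Injured placebo 2 was the highest library for 33 of 39 members. By role, those 3 libraries led for 5 of 5 chromosome genes, 7 of 8 cyclins and mitotic kinases, 5 of 6 checkpoint and anaphase genes, 6 of 8 spindle and cytokinesis genes, 4 of 7 helicase genes and 2 of 5 genes of the clamp and nucleotide supply. In bulk muscle, more cells of a dividing type and more of this RNA per cell cannot be told apart.

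**Figure D1:**
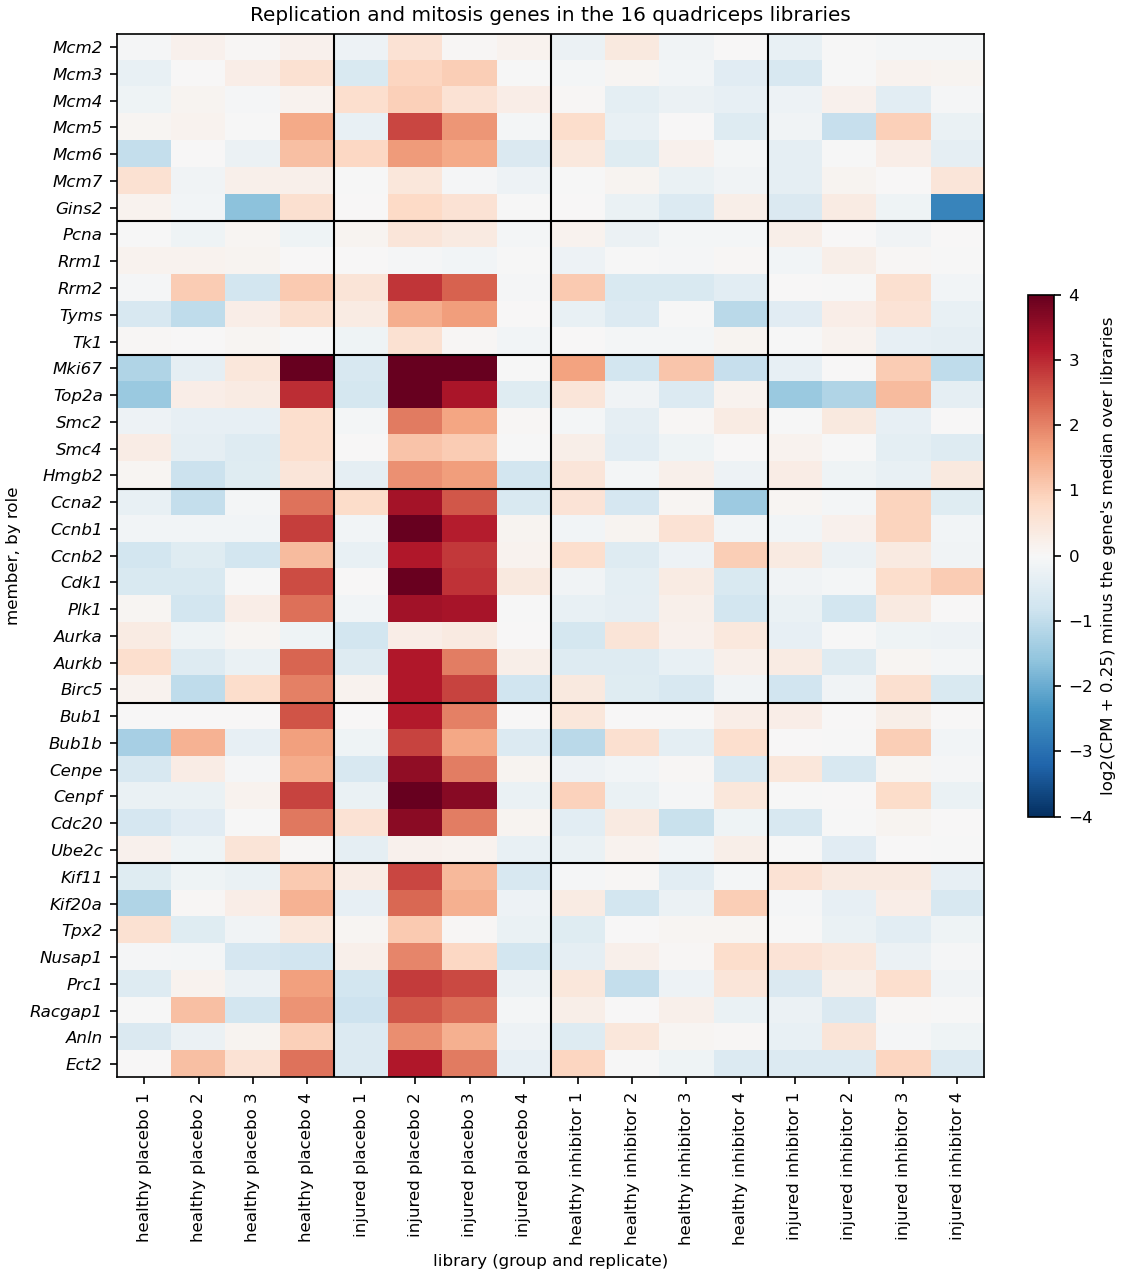
Level of each of the 39 members (rows, grouped by role) in each of the 16 libraries (columns, grouped by condition), as log2(CPM + 0.25) minus the member's median over libraries, with colours ending at 4 and -4. The dark columns are injured placebo 2, injured placebo 3 and healthy placebo 4, while injured placebo 1 and 4 look like the 8 inhibitor libraries.

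Injured placebo 1 and 4 did not share the pattern of healthy placebo 4 and injured placebo 2 and 3. Scoring each library by the median, over the 33 members tested, of the log2 deviation from the member's own mean gave 0.83, 1.97 and 1.38 for these 3 libraries. The other 13 libraries scored from -0.38 to 0.04. In injured placebo 2, 32 of 33 members were above their own mean, in injured placebo 3 31, and in healthy placebo 4 28, while injured placebo 1 had 11 and injured placebo 4 had 6. The 4 injured placebo libraries thus lay in 2 separate ranges, and the healthy placebo group held 1 library of the high kind.

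Markers of several other cell types were high in the same libraries, each to its own extent. Monocyte markers (6 genes, led by Ccr2 and Plac8, with Chil3 at 0 in 8 or more libraries) summed to 27.03, 72.2 and 57.8 CPM in these 3, against 1.95 to 8.67 CPM elsewhere. Markers of satellite cells and new fibres (10 genes, led by Myod1 and Myh3) summed to 325.5 and 451.2 CPM in injured placebo 2 and 3, but to 85.4 CPM in healthy placebo 4, within the 60.4 to 86.9 CPM of the others. Single new-fibre genes of that list were nevertheless higher in healthy placebo 4 than in all libraries but injured placebo 2 and 3: the fusion gene Mymk was at 2.51 CPM there against at most 0.416 CPM in the other 13, and embryonic myosin Myh3 at 14.1 against at most 12.7 CPM. In injured placebo 2 and 3, Mymk was at 17.4 and 26.5 and Myh3 at 145.0 and 252.3 CPM. Joint lining and cartilage markers (13 genes, led by Prg4 and Cilp, with Acan and Col10a1 at 0 in 8 or more libraries) were high in the same 3 libraries, at 405.9, 437.2 and 486.3 CPM, and also in healthy inhibitor 1, at 279.0 CPM, against 28.9 to 94.9 CPM elsewhere. Healthy inhibitor 1 was not among the libraries high in the members: its score was -0.02, and Mki67 was at 1.78 CPM.

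Neutrophil and marrow precursor markers (9 of 10 genes in the table, led by S100a9 and S100a8) summed to 29.5 and 16.4 CPM in healthy placebo 4 and injured placebo 2 and to 19.5 CPM in healthy inhibitor 1, but to at most 1.61 CPM elsewhere, injured placebo 3 included. In 8 or more libraries Mpo, Elane, Ltf, Camp, Ngp and Prtn3 of that list were at 0. Of 9 T and NK cell markers, 6 were in the table, led by Thy1 and Cd3e, with Nkg7 and Klrb1c at 0 in 8 or more libraries. They summed to 30.3, 37.8 and 37.5 CPM in the 3 high libraries and to 5.33 to 16.2 CPM elsewhere. Most of the sum in the 3 was Thy1, at 26.6, 32.4 and 34.3 CPM, above every other library. Cd3e did not follow, at 1.59, 1.96 and 1.48 CPM in the 3, against 0.908 to 3.71 CPM elsewhere. Cd2 and Cd4 were low but highest in the 3. Cd2 was at 0.882 to 1.24 CPM there, against at most 0.457 CPM, and Cd4 at 0.400 to 0.601, against at most 0.170 CPM. Bone markers (12 genes, led by Alpl and Ctsk, with Bglap, Bglap2, Ibsp and Sp7 at 0 in 8 or more libraries) summed to 41.0 to 60.4 CPM in the 3 and to 13.2 to 36.7 CPM elsewhere. The members of this list were not alike. Ctsk was at 21.7 to 30.6 CPM in the 3, against at most 5.66 CPM elsewhere, and Runx2 at 2.13 to 4.47 against at most 0.991 CPM. Alpl was at 6.04 to 8.18 CPM in the 3, against 7.73 to 14.4 CPM elsewhere. Red cell precursors also divide, but the erythroid list (9 of 11 genes in the table, led by Hbb-bs and Hba-a1) did not follow the members: its highest libraries were healthy inhibitor 1 at 452.4 CPM and injured placebo 1 at 443.0 CPM. The sum of the endothelial markers (8 genes, led by Cdh5 and Kdr) was lowest in the 3, at 223.0 to 266.4 CPM, against 272.5 to 366.6 CPM elsewhere. Of that list Cdh5, Kdr and Tie1 each had those 3 as their lowest, unlike its other genes. Cldn5 was at 8.20 to 10.3 CPM in the 3, against 6.26 CPM in injured placebo 1. Tek was at 15.1 to 20.1 CPM in them, against 14.4 CPM in healthy placebo 3. The B cell list (Ighm and Cd79b, 2 of 9 genes in the table) and the fibro-adipogenic progenitor list (10 genes, led by Gsn and Dcn) ran from 15.4 to 56.9 and from 560.4 to 1515 CPM, without those 3 libraries as their 3 highest. Within the progenitor list, however, Pdgfra, Ly6a, Cd34 and Lum each had those 3 as their highest, unlike its other genes. Pdgfra was at 41.2 to 48.1 CPM in the 3, against at most 33.4 CPM elsewhere. Lum was at 91.3 to 126.5 CPM in them, against at most 41.5 CPM. The part that any of these cell types had in the members' levels was not tested.

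**Figure D2:**
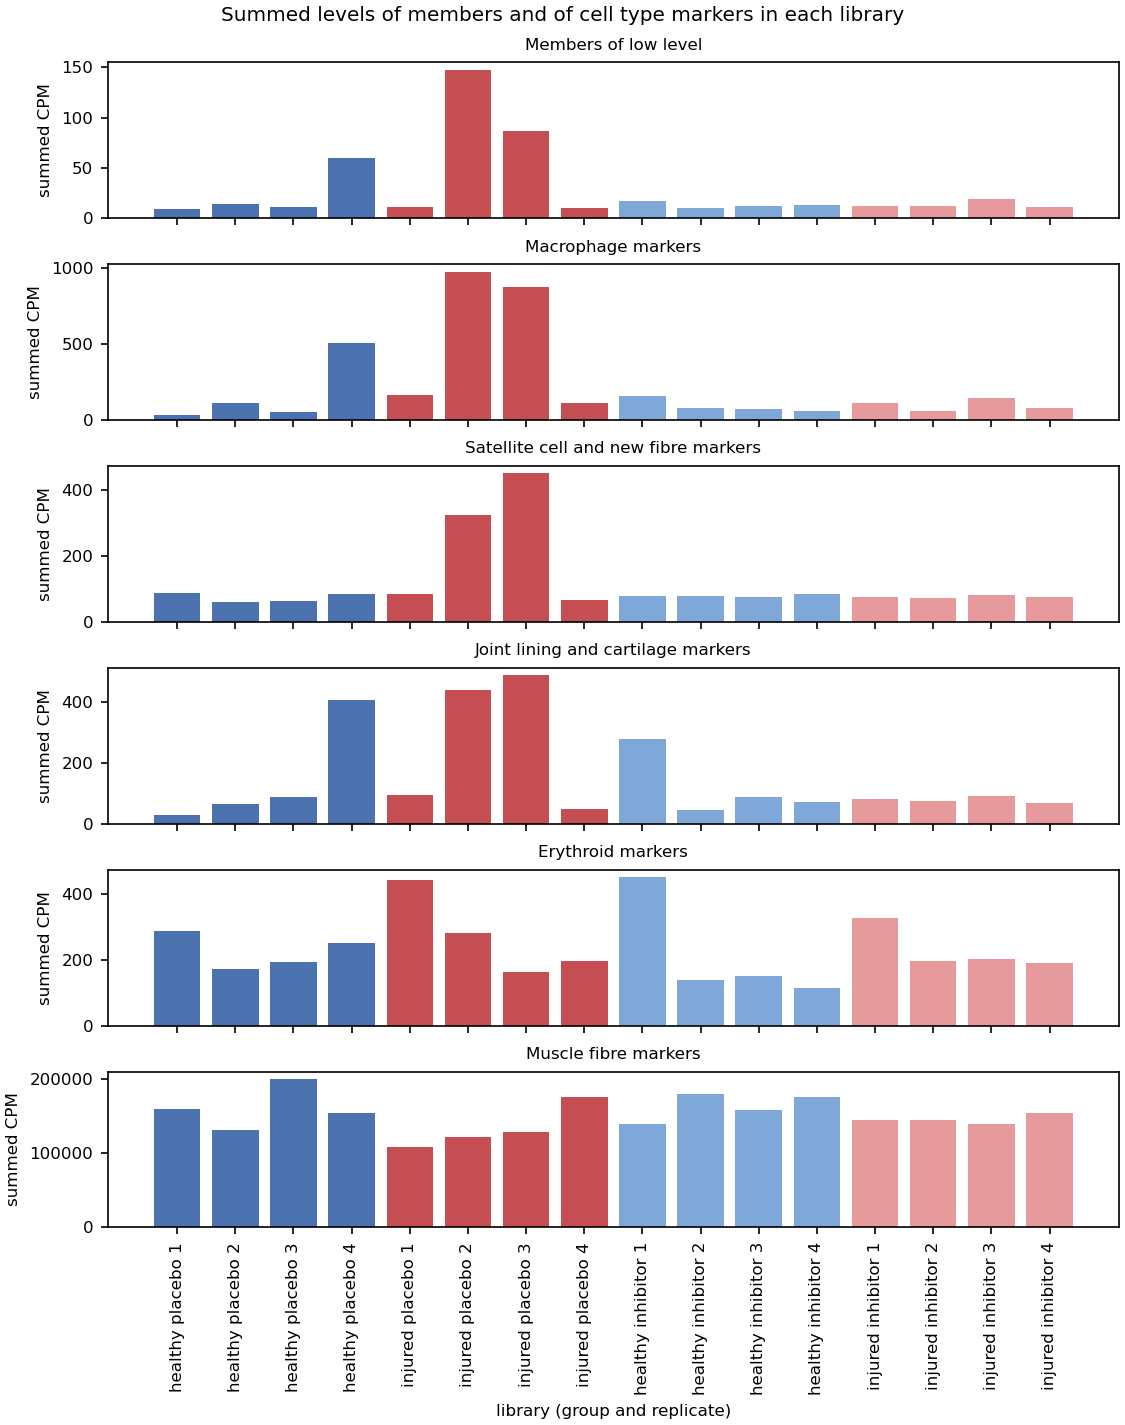
Summed CPM in each of the 16 libraries (bars, coloured by group) of the 25 members with a median CPM under 2, and of the macrophage, satellite cell and new fibre, joint lining and cartilage, erythroid and muscle fibre markers. The member and macrophage panels peak in the same 3 libraries, the summed new-fibre panel in injured placebo 2 and 3, the joint panel also in healthy inhibitor 1, and the erythroid panel in other libraries.

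Levels between genes are compared per length, as TPM, which divides counts by the annotated exon length and scales each library to the same sum. In the median library Ube2c was the highest member at 30.5 TPM, followed by Pcna at 13.3 and Rrm1 at 8.02 TPM, and Bub1 was the lowest at 0 TPM. The members at the top of this order varied little between libraries, while most mitotic members lay near 0 outside the 3 high libraries. In 9 of 39 members the highest library was under 2 times the median library: Mcm2, Mcm4, Mcm7, Gins2, Pcna, Rrm1, Tk1, Aurka and Ube2c. Of the other 30, Bub1 had a median of 0 and 29 reached 2 times their median or more.

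**Figure D3:**
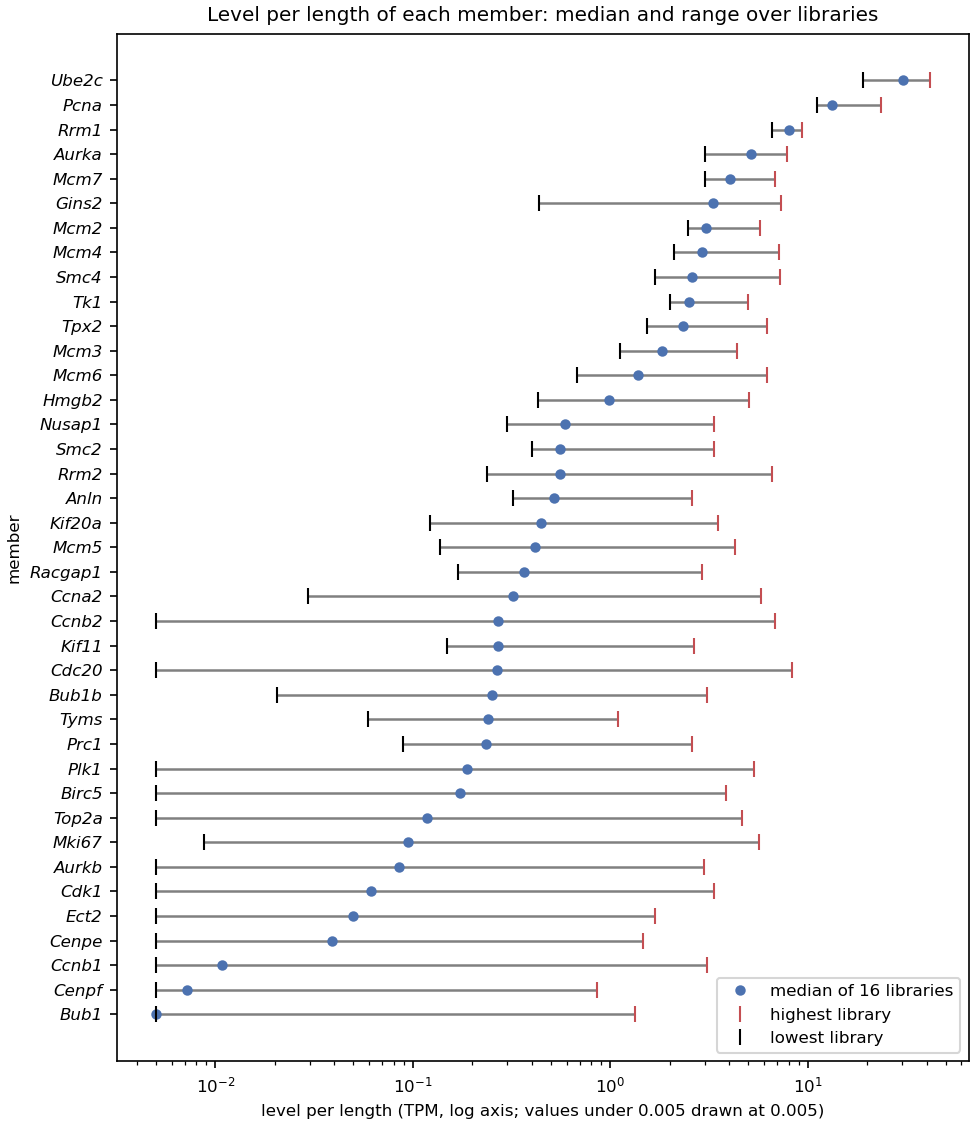
Level per length of each member on a log axis in TPM, with the median (dot), lowest and highest (ticks) of the 16 libraries, and values under 0.005 TPM drawn at 0.005. Members at the top have short bars and those at the bottom, such as Ccnb1, Cenpf and Bub1, have a median near 0 and a highest library far above it.

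Some members, flat and variable ones, share exon bases with a neighbour on the other strand, and the strand setting of the counting is not given in the sources used here. Ube2c shares 592 exon bases (22.8% of its own) with Tnnc2, the troponin C of fast muscle fibres, whose level was 2442 to 7421 CPM, against a median of 32.98 CPM for Ube2c. Gins2 shares 2758 bases (67.3%) with Gse1, whose median was 34.0 CPM, against 5.76 CPM for Gins2. Kif20a shares 1271 bases (29.3%) with Cdc23, at a median of 21.2 CPM. Smaller overlaps with other genes on the opposite strand hold for Ccna2, Prc1, Mcm7, Nusap1, Tk1 and Cdc20. Whether reads of the neighbour entered these counts was not tested. Ccnb1, Ccnb2, Pcna and Tyms have annotated pseudogenes that can share reads with them.

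Values below are in replicate order, 1 to 4. The helicase genes had both flat and variable members. Mcm2 was at 8.91, 10.3, 9.40 and 10.3 CPM in the healthy placebo and 7.82, 13.6, 9.38 and 10.2 CPM in the injured placebo libraries. With the inhibitor, Mcm2 was at 7.78, 12.0, 8.20 and 9.32 CPM in the healthy and 7.41, 8.94, 8.63 and 8.65 CPM in the injured libraries. All 4 groups overlapped, and injured placebo 2 alone lay above 13 CPM. Mcm4 was at 3.93, 4.83, 4.29 and 4.94 CPM in the healthy placebo and 7.19, 8.83, 6.70 and 5.33 CPM in the injured placebo libraries. Its inhibitor libraries held 4.57, 3.29, 3.72 and 3.49 CPM in healthy and 3.78, 5.03, 3.22 and 4.24 CPM in injured muscle. Here every injured placebo library was above every library of the other groups. Mcm4 was in this the only member: its values in injured placebo 1 and 4, which were low for most members, were above all 12 libraries of the other groups. Mcm3, Mcm5 and Mcm6, other subunits of the ring, reached 6.05, 5.89 and 9.96 CPM at most, with medians of 2.96, 0.718 and 2.92 CPM, and had the 3 high libraries on top. Mcm7 ranged from 5.74 to 11.6 CPM with healthy placebo 1 highest. Gins2 ranged from 0.721 to 10.3 CPM and also had the 3 high libraries on top, from 8.74 to 10.3 CPM.

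Of the clamp and nucleotide genes, the subunits of ribonucleotide reductase parted company. Rrm1, the large subunit, was at 39.9, 40.3, 38.99 and 36.4 CPM in the healthy placebo and 36.5, 35.2, 33.8 and 35.9 CPM in the injured placebo libraries. The inhibitor libraries had 31.6, 36.2, 34.8 and 37.3 CPM of Rrm1 in healthy and 34.0, 42.5, 37.8 and 36.3 CPM in injured muscle. Rrm1 was thus flat, with injured placebo 2 and 3 below its median of 36.4 CPM and healthy placebo 4 at it. Rrm2, the small subunit that is made in S phase, was at 0.623, 1.58, 0.291 and 1.63 CPM in the healthy placebo and 1.03, 6.25, 4.41 and 0.630 CPM in the injured placebo libraries. It was at 1.60, 0.344, 0.345 and 0.423 CPM in the healthy inhibitor and 0.669, 0.635, 1.16 and 0.594 CPM in the injured inhibitor libraries. Injured placebo 2 and 3 stood above all others for Rrm2, and healthy placebo 4 was barely above healthy placebo 2 and healthy inhibitor 1. Tyms, which makes thymidylate, had the 3 high libraries on top, from 1.10 to 2.53 CPM, over a median of 0.621 CPM. Pcna ranged from 11.6 to 19.3 CPM and Tk1, which salvages thymidine, from 4.37 to 8.83 CPM.

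The chromosome genes followed the 3 libraries without exception. Mki67, whose protein Ki-67 coats mitotic chromosomes and is the usual marker of cycling cells, was at 0.0389, 0.271, 0.666 and 11.1 CPM in the healthy placebo and 0.179, 19.5, 11.7 and 0.420 CPM in the injured placebo libraries. With the inhibitor, Mki67 was at 1.78, 0.153, 1.19 and 0.106 CPM in healthy and 0.287, 0.423, 1.12 and 0.0848 CPM in injured muscle. The 3 high libraries each had over 10 CPM, and none of the other 13 reached 2. Top2a, the topoisomerase that untangles replicated DNA, was at 0, 0.587, 0.624 and 5.20 CPM in the healthy placebo and 0.179, 14.4, 6.54 and 0.252 CPM in the injured placebo libraries. Its inhibitor libraries held 0.732, 0.382, 0.230 and 0.529 CPM in healthy and 0, 0.0529, 1.45 and 0.297 CPM in injured muscle, so the same 3 libraries lay above 5 CPM and all others below 1.5.

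Smc2 and Smc4 are the ATPase pair of condensin. Smc2 was at 1.09, 0.994, 0.999 and 2.25 CPM in the healthy placebo and 1.21, 6.29, 4.37 and 1.34 CPM in the injured placebo libraries. With the inhibitor it was at 1.24, 0.955, 1.34 and 1.69 CPM in healthy and 1.29, 1.80, 0.991 and 1.31 CPM in injured muscle. For Smc4 the healthy placebo libraries gave 7.20, 4.47, 3.91 and 9.39 CPM and the injured placebo libraries 5.85, 12.9, 11.9 and 5.75 CPM. Healthy inhibitor libraries had 6.77, 4.28, 5.13 and 5.77 CPM of Smc4 and injured inhibitor libraries 6.31, 5.72, 4.34 and 3.99 CPM. Both genes kept a clear level in every library and were highest in the same 3. Hmgb2, a chromatin protein, ranged from 0.587 to 5.16 CPM with the same 3 libraries on top.

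Among the cyclins and mitotic kinases, Aurka differed from the rest. Aurka, the kinase of the spindle poles, was at 7.08, 4.92, 5.82 and 4.89 CPM in the healthy placebo and 3.22, 6.80, 7.14 and 5.62 CPM in the injured placebo libraries. With the inhibitor, Aurka was at 3.29, 8.03, 6.32 and 7.57 CPM in healthy and 4.35, 5.50, 4.96 and 4.84 CPM in injured muscle. Healthy inhibitor 2 was its highest library, and the groups overlapped. Birc5, survivin, a partner of Aurora B at the centromere, was at 0.311, 0, 0.582 and 1.81 CPM in the healthy placebo and 0.313, 4.47, 3.05 and 0.0420 CPM in the injured placebo libraries. Its inhibitor libraries held 0.412, 0.115, 0.0766 and 0.212 CPM in healthy and 0.0478, 0.212, 0.537 and 0.0848 CPM in injured muscle. Thus Birc5 passed 1 CPM only in the 3 high libraries. Ccna2, cyclin A2, reached 8.07 CPM over a median of 0.577 CPM, Ccnb2, cyclin B2, 3.56 over 0.169, and Cdk1 5.63 over 0.129. Of the kinases and cyclins not tested, Ccnb1 reached 4.47, Plk1 4.04 and Aurkb 3.02 CPM, each in injured placebo 2, with medians of 0.019, 0.169 and 0.104 CPM.

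Cdc20, the activator of the anaphase-promoting complex, was at 0.0389, 0.0904, 0.208 and 1.76 CPM in the healthy placebo and 0.447, 5.34, 1.64 and 0.252 CPM in the injured placebo libraries. With the inhibitor, Cdc20 was at 0.0915, 0.344, 0 and 0.159 CPM in healthy and 0.0478, 0.212, 0.248 and 0.212 CPM in injured muscle. The 4 injured libraries on placebo were all at or above the highest of the injured libraries on the inhibitor, by a margin of a few counts at the lower end (6 counts in injured placebo 4 and 6 in injured inhibitor 3). Ube2c, the ubiquitin-conjugating enzyme of that complex, was at 36.8, 29.4, 46.9 and 33.8 CPM in the healthy placebo and 25.5, 37.1, 36.6 and 27.03 CPM in the injured placebo libraries. It was at 27.3, 36.00, 30.3 and 39.2 CPM in the healthy inhibitor and 32.8, 23.8, 33.1 and 32.7 CPM in the injured inhibitor libraries. So Ube2c stood far above Cdc20 in every library and did not follow the 3, beside its overlap with Tnnc2 given above. The checkpoint kinases Bub1 and Bub1b reached 2.00 and 4.51 CPM, and the kinetochore proteins Cenpe and Cenpf 4.33 and 4.54 CPM, in injured placebo 2. Bub1 had 27, 55 and 19 counts in the 3 high libraries and at most 2 in any other library.

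For spindle assembly, Tpx2, which activates Aurora A on microtubules, was at 7.28, 3.25, 4.24 and 6.39 CPM in the healthy placebo and 4.92, 9.96, 4.89 and 3.82 CPM in the injured placebo libraries. It was at 3.25, 4.78, 4.90 and 4.92 CPM in the healthy inhibitor and 4.59, 3.86, 3.47 and 4.16 CPM in the injured inhibitor libraries, with all groups overlapping. Nusap1, a microtubule-binding protein of the spindle, was at 0.973, 0.949, 0.541 and 0.485 CPM in the healthy placebo and 1.21, 4.65, 1.96 and 0.504 CPM in the injured placebo libraries. With the inhibitor, Nusap1 was at 0.732, 1.18, 1.03 and 1.80 CPM in healthy and 1.58, 1.43, 0.826 and 0.976 CPM in injured muscle. For Nusap1 healthy placebo 4 was the lowest of all 16 libraries, unlike the rest of the spindle group. The kinesins Kif11 and Kif20a reached 6.76 and 5.20 CPM. The cytokinesis proteins Prc1, Racgap1, Anln and Ect2 (midzone bundling, centralspindlin, the anillin scaffold and the RhoA activator) reached 7.27, 7.09, 8.03 and 3.09 CPM. All 6 were highest in injured placebo 2 and had the 3 high libraries on top.

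**Figure D4:**
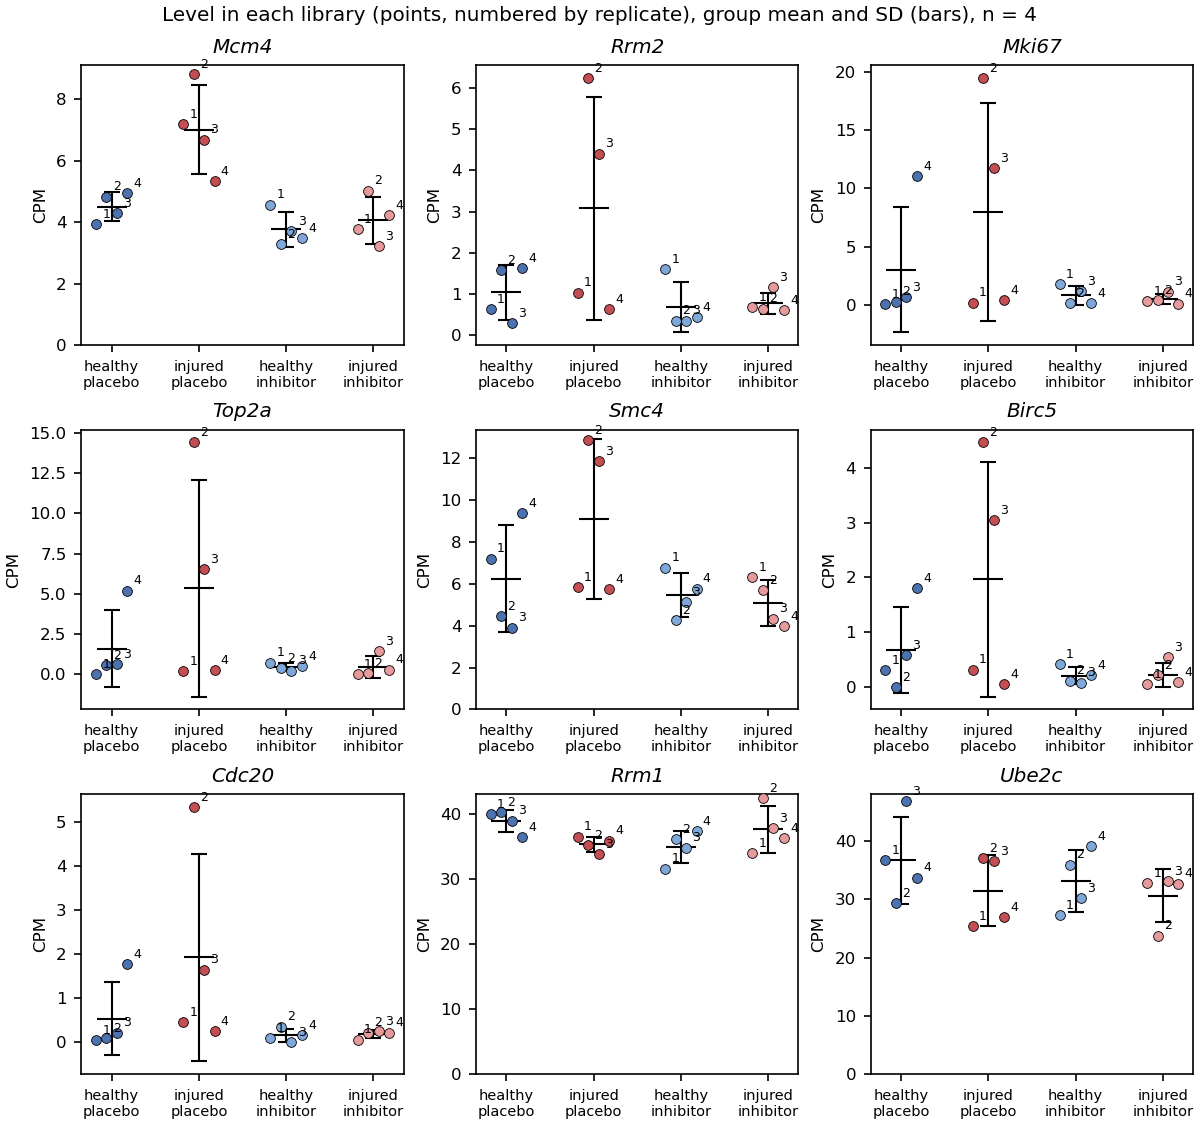
CPM of 9 members in each library (points, numbered by replicate) by group, with the group mean and SD as bars (n = 4). Injured placebo 2 and 3 are the highest of their group for Rrm2, Mki67, Top2a, Smc4, Birc5 and Cdc20, and healthy placebo 4 is far above its group for Mki67, Top2a, Birc5 and Cdc20, Mcm4 has all 4 injured placebo points on top, and Rrm1 and Ube2c are flat.

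The first comparison asked how the injured quadriceps differed from the healthy one in mice on placebo. Of the 33 members tested, 30 had a higher mean in injured muscle, against 51.1% of all genes tested, and the median log2 difference of the members was 0.90, against 0.01 for all genes. The medians by role were 0.45 for the helicase, 0.30 for the clamp and nucleotide genes, 1.31 for the chromosome genes, 1.58 for the cyclins and kinases, 0.81 for the checkpoint and anaphase genes and 0.91 for spindle and cytokinesis. None of the 33 passed an adjusted p of 0.05 by edgeR's quasi-likelihood test with Benjamini-Hochberg adjustment over all genes, and neither did any other gene (0% called). At an unadjusted p under 0.05, 9 members were higher (Mcm4, Pcna, Rrm2, Tyms, Smc2, Hmgb2, Ccnb2, Kif11 and Nusap1) and 0 lower, against 4.61% of all genes higher. DESeq2 called 0 members and 2 genes in all, and limma-voom 0 members and 0 genes.

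Mcm4 was the 1 member whose injured placebo libraries did not overlap the healthy placebo ones, as held for 0.87% of all genes in the higher direction. Its log2 difference was 0.64 ± 0.19 (SE), with an adjusted p of 0.641 by edgeR, and that p ran from 0.144 to 0.979 over the alternatives. The largest log2 difference was that of Ccnb2, at 3.05 ± 1.23. Ccnb2 had 0, 1, 0 and 17 counts in the healthy placebo and 2, 98, 68 and 5 counts in the injured placebo libraries. Outside the high libraries Ccnb2 had at most 11 counts and Cdk1 at most 12. Both thus passed the filter on low counts largely through the libraries in which they were high. Nusap1 and Smc2 followed Mcm4 in order of p, at 1.496 ± 0.53 and 1.31 ± 0.47. For Mki67 the difference was 1.41 ± 1.45, for Top2a 1.74 ± 1.38 and for Birc5 1.55 ± 1.10: large values with an SE of the same order. Rrm1 (-0.14 ± 0.08), Mcm7 (-0.18 ± 0.20) and Ube2c (-0.22 ± 0.17) had negative values, and Aurka (0.00 ± 0.26) and Mcm2 (0.08 ± 0.17) lay near 0.

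The direction of the group difference rested on the libraries that stood apart. These libraries also led for most members, so leaving them out describes that dependence and is no separate test. Without healthy placebo 4, injured placebo 2 and injured placebo 3, which were the 3 highest in macrophage markers, the median of the members was -0.14. It was also -0.14 without the 4 libraries highest in Prg4 (those 3 and healthy inhibitor 1). In either case 2 of 33 members had an unadjusted p under 0.05, beside 639 and 596 of the 15411 genes. Mcm4 kept a log2 difference of 0.52 in both, while that of Mki67 was -0.11 and that of Top2a -0.88 without the 3. Leaving out single libraries moved the median from 0.35 without injured placebo 2 to 1.51 without healthy placebo 4, with 1 and 20 of 33 members at an unadjusted p under 0.05, beside 478 and 2506 of the 15411 genes.

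Within the placebo animals the members went different ways. In animal 2, 32 of 33 members were higher in the injured quadriceps (median log2 2.17), and in animal 3, 28 of 33 (median 1.81). Animal 1 had 18 of 33 (median 0.06) and animal 4 had 4 of 33 (median -1.26). Over all genes tested the median within each of these animals lay between -0.0036 and 0.021. The share of all genes higher in the injured muscle was 51.9, 51.6, 49.7 and 51.8% in animals 1 to 4. Animal 4 is the one whose healthy muscle gave the library high in macrophage markers. With the animal as a block, the median of the members was 0.92 and 3 members (888 genes in all) had an unadjusted p under 0.05, against 9 (1116 genes) without it.

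In mice on the inhibitor, the injured and healthy quadriceps did not differ in one direction. The median log2 difference of the members was 0.02 (0.0034 for all genes), with 18 of 33 members above 0, against 51% of all genes, and values from -0.74 for Mki67 to 1.499 for Cdk1. No member or other gene was called by edgeR (0% called), and 0 of 33 members had an unadjusted p under 0.05, against 1.31% of all genes; DESeq2 and limma-voom called 0 members. Cdk1 had at most 12 counts in any inhibitor library. For 0 members were the groups free of overlap, against 1.13% of all genes higher and 1.12% lower. Within the 4 animals, 11, 20, 21 and 12 of 33 members were higher in the injured muscle, against 50.8, 49.4, 49.3 and 51.1% of all genes. The medians of the members were -0.27, 0.24, 0.27 and -0.24. These medians are smaller in size than those of 3 of the 4 placebo animals.

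Between the injured quadriceps of the 2 treatments, the question was how the inhibitor changed injured muscle. Of the 33 members, 31 had a lower mean with the inhibitor, against 53.1% of all genes, and the median log2 difference was -1.25 (-0.02 for all genes). The role medians were -0.79 for the helicase, -0.28 for the clamp and nucleotide genes, -1.30 for the chromosome genes, -2.94 for the cyclins and kinases, -1.44 for checkpoint and anaphase and -1.47 for spindle and cytokinesis. The median of the cyclins and kinases was the value of Cdk1. Cdk1 had 3, 155, 64 and 6 counts in the injured placebo and 2, 2, 9 and 12 counts in the injured inhibitor libraries. No member was called by edgeR (0% of all genes called). At an unadjusted p under 0.05, 18 members were lower and 0 higher, against 9.03% of all genes lower. The 18 were Mcm4, Mcm5, Mcm6, Rrm2, Mki67, Top2a, Smc2, Smc4, Ccna2, Ccnb2, Cdk1, Birc5, Cdc20, Kif11, Kif20a, Prc1, Racgap1 and Ect2. Groups did not overlap for Mcm4 and Cdc20, against 2.87% of all genes in the lower direction.

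Mcm4 had the smallest p of the members here too, with a log2 difference of -0.79 ± 0.19 and an adjusted p of 0.174 by edgeR. DESeq2 gave Mcm4 an adjusted p of 0.0227 and limma-voom with quality weights 0.0237, and over all alternatives it ran from there to 0.726. DESeq2 called Mcm4 alone of the members among 248 genes. Limma-voom called Mcm4, Mcm6, Smc2 and Smc4 among 1229 genes. Cdc20 had a log2 difference of -3.38 ± 1.17, Mki67 of -4.03 ± 1.69, Top2a of -3.52 ± 1.53 and Birc5 of -3.11 ± 1.21. Smaller differences were those of Rrm2 (-2.004 ± 0.73), Smc2 (-1.30 ± 0.47), Smc4 (-0.84 ± 0.31), Nusap1 (-0.80 ± 0.52) and Tpx2 (-0.55 ± 0.29). Rrm1 (0.09 ± 0.08), Mcm7 (0.01 ± 0.20), Ube2c (-0.04 ± 0.17), Pcna (-0.20 ± 0.13), Aurka (-0.22 ± 0.27), Tk1 (-0.28 ± 0.18) and Mcm2 (-0.29 ± 0.17) had the smallest differences. With no filter on low counts, the 6 members otherwise not tested had log2 differences from -4.61 for Bub1 to -3.25 for Cenpe, and 23 of 39 members had an unadjusted p under 0.05, beside 2486 genes in all.

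This difference too rested on injured placebo 2 and 3. Without the 3 libraries highest in macrophage markers, the median of the members was 0.19, as it was without the 4 highest in Prg4, and 1 member had an unadjusted p under 0.05 in either case, beside 1053 and 981 genes in all. The log2 difference of Mcm4 was then -0.62, that of Cdc20 -0.92, that of Mki67 0.67 and that of Top2a 1.08 without the 3. Without injured placebo 2 alone the median was -0.68 with 1 member at an unadjusted p under 0.05, and without injured placebo 3 alone 6 members were, beside 1294 and 1460 genes in all. The summed macrophage markers were 111.5 to 979.8 CPM in the injured placebo and 60.5 to 145.5 CPM in the injured inhibitor libraries.

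**Figure D5:**
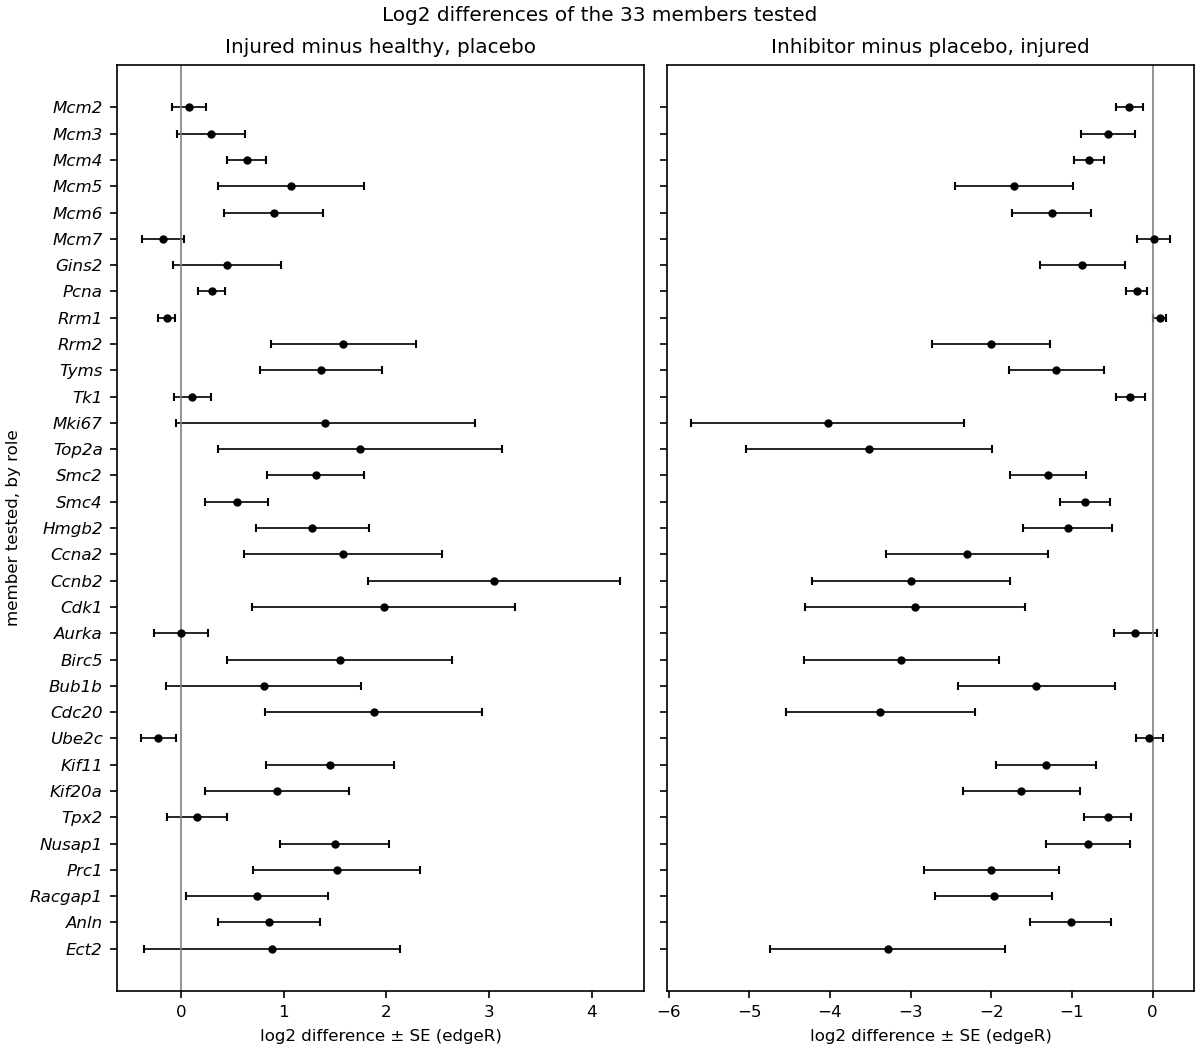
Log2 difference with its SE of the 33 members tested, by role, for injured minus healthy muscle on placebo (left) and inhibitor minus placebo in injured muscle (right), with 0 marked. Of the points, 30 lie above 0 on the left and 31 below 0 on the right, with the widest errors for the mitotic genes. Both panels use the injured placebo libraries.

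In healthy quadriceps the inhibitor and placebo groups gave a median log2 difference of the members of -0.26 (-0.02 for all genes), with 29 of 33 below 0, against 54% of all genes. Cdk1 had the lowest value (-2.47 ± 1.54) and Nusap1 the highest (0.68 ± 0.53). The counts of Cdk1 were 0, 0, 3 and 47 in the healthy placebo and 2, 1, 6 and 0 in the healthy inhibitor libraries. No member was called by edgeR, DESeq2 or limma-voom (0% of all genes by edgeR), and 0 had an unadjusted p under 0.05, against 3.34% of all genes. The groups overlapped for every member tested, while 0.96% of all genes were higher and 1.59% lower without overlap. This difference rested on healthy placebo 4: without it the median was 0.075. The members' sums were 149.3 to 217.6 CPM in healthy placebo and 142.1 to 160.5 CPM in healthy inhibitor libraries.

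The difference of the injury effects, inhibitor minus placebo, had a median of -0.95 over the members (-0.0032 for all genes), with 30 of 33 below 0, against 50.5% of all genes. By edgeR 0 members were called (0% of all genes), and 0 had an unadjusted p under 0.05, against 2.74% of all genes; DESeq2 and limma-voom also called 0 members and had 2 and 6 at an unadjusted p under 0.05, beside 492 and 1671 genes in all. Rrm1 (0.24 ± 0.12), Mcm4 (-0.53 ± 0.27) and Nusap1 (-1.48 ± 0.75) had the smallest p. Without the 3 libraries highest in macrophage markers the median was 0.059, and without the 4 highest in Prg4 0.074. No member's injury effect was thus shown to differ between the treatments. The comparisons share groups: all 3 that involve injured placebo use the same 4 libraries, 2 of which stood apart.

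Other cell cycle genes, from lists chosen with earlier results of these data known, were read beside the members. In injured against healthy muscle on placebo, 28 of 31 tested genes of other mitotic functions had a higher mean (median log2 0.94) and 9 had an unadjusted p under 0.05, all higher, against 51.1% and 4.61% of all genes tested. The summed levels of this list were highest in injured placebo 2 and 3 and healthy placebo 4, at 191.6, 148.9 and 122.1 CPM, against 74.9 to 87.04 CPM in the other 13 libraries. The same 3 libraries led the sums of the other replication genes (313.5, 285.8 and 276.5 CPM, with a median of 262.1 CPM over all 16) and of the G1 genes (195.7, 168.5 and 153.9 CPM, with a median of 118.2 CPM). The differences of these 3 lists were not recomputed without those libraries. The smallest p among them were those of the spindle kinesin Kifc1 at 2.73 ± 0.80, the centromeric histone Cenpa at 1.37 ± 0.48 and the kinetochore gene Spc24 at 0.80 ± 0.34. Of 44 other replication genes, 33 were higher (median 0.23), 6 of them and 1 lower gene at an unadjusted p under 0.05. Uhrf1, which guides maintenance of DNA methylation, was at 2.42 ± 0.79, the histone mRNA binder Slbp at 0.55 ± 0.19 and the polymerase subunit Pold1 at 0.40 ± 0.16. The other mitotic genes thus had a median near that of the members and the other replication genes a lower one.

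The lists of G1 regulators and of cell cycle inhibitors had smaller medians. Of 17 genes of the G1 phase and its transcription factors, 13 were higher on placebo (median 0.40), with Cdk2 at 0.53 ± 0.22, E2f2 at 0.68 ± 0.31 and Myc at 0.57 ± 0.31. Of 15 cell cycle inhibitors and quiescence genes, 10 were higher (median 0.22), with Cdkn1c at 0.75 ± 0.34 and Cdkn1a at 0.93 ± 0.42, both brakes on cyclin-dependent kinases, and E2f5 at 0.64 ± 0.31. So genes that drive and genes that hold back the cycle both had positive medians. No gene of the 4 lists was called by edgeR in any of the 5 comparisons.

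With the inhibitor in injured muscle, 29 of 31 other mitotic genes were lower (median -1.42), 18 of them and 1 higher gene at an unadjusted p under 0.05, against 53.1% of all genes lower and 9.03% lower at that p. Injured placebo 2 and 3, which led the sums of the mitotic, replication and G1 lists, are part of this comparison. Ncapd2, a condensin subunit, was at -0.56 ± 0.13, the CDK1-activating phosphatase Cdc25b at -1.42 ± 0.36 and the microtubule regulator Stmn1 at -2.11 ± 0.58. Of the 44 other replication genes 35 were lower (median -0.31), 9 at an unadjusted p under 0.05, with the clamp loader subunit Rfc5 at -0.92 ± 0.28, Uhrf1 at -2.50 ± 0.80 and Slbp at -0.52 ± 0.19. Of the 17 G1 genes 16 were lower (median -0.50), 7 at an unadjusted p under 0.05, with Cdk2 at -0.91 ± 0.22, Cdk4 at -0.47 ± 0.17 and Myc at -0.82 ± 0.31. The inhibitors and quiescence list was mixed, with 11 of 15 lower (median -0.20): the retinoblastoma relative Rbl1 was at -1.15 ± 0.26 and Cdkn1b at -0.30 ± 0.10, while the antiproliferative Tob1 was at 0.31 ± 0.11. In the other 3 comparisons the medians of the 4 lists lay between -0.92 and 0.08.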

How the data were processed

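Total RNA was extracted with TRIzol plus a column kit, per the labels' protocols. The deposited values are expected counts per Ensembl gene, 33.8% of them not whole, which the authors made with STAR, Partek and DESeq2 on GRCm38/mm10, per the submitters' processing notes (no roles or versions given). The annotation release and the strand setting are not given in the sources used here. Every gene reached a count of 10 in some library. Columns of other samples numbered 0. Counts were rounded here, and symbols, coordinates and exon lengths came from GENCODE M21 by Ensembl ID (17338 of 17370 genes matched).

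With edgeR 4.0.16 in R 4.3.3, filterByExpr (minimum count 10) took out 1959 genes, TMM factors were applied, and a robust quasi-likelihood model with 1 mean per group was fitted over 16 libraries (12 residual degrees of freedom, common biological coefficient of variation 0.284). The 5 comparisons used two-sided tests at 0.05 after Benjamini-Hochberg adjustment over 15411 genes, and the script was tested on simulated data. P-values measure the spread between the labelled biological replicates. The SE of a log2 difference is its size divided by the square root of F. Log2 levels behind scores and within-animal values used a prior count of 2.

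Members and lists were chosen with earlier results of these data known, so list medians are descriptions. Values in every library are given for Mki67 and Top2a and, per role, for the member with the highest mean CPM and the one with the smallest p; at most 3 genes are named from each other list and comparison. Gene names further outside that rule were chosen after their values were seen.

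Alternatives tried were limma 3.58.1 (voom with quality weights), DESeq2 1.42.0, its size factors in edgeR, all genes unfiltered, fitting only the libraries compared, a replicate block, leaving out each library, and leaving out the 3 or 4 libraries that stood apart, chosen after seeing the data. No 2 libraries were identical. Healthy and injured libraries of 1 number come from the same animal by the library names; their deviations correlated at 0.47, -0.18, -0.11 and -0.53 in placebo animals 1 to 4 and at 0.23, -0.04, -0.01 and -0.10 in inhibitor animals 1 to 4.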

Additional observations from a re-analysis of the deposited data

Results flagged for a closer look

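In 60 sets of 4 libraries (the members given in every library, by group, and the group sums) the highest or lowest library was checked against the spread of the others with Dixon's 95% criterion. Of these, 8 exceeded it, and 4 of the 8 were in healthy placebo 4. The criterion's rate of about 1 in 20 holds for independent, normally distributed values. Sets of members that vary together are not independent, so the 8 cannot be weighed against that rate. In that library Mki67 was at 11.1 CPM against 0.0389 to 0.666 CPM in the other healthy placebo libraries, Top2a at 5.20 CPM against 0 to 0.624, Smc2 at 2.25 CPM against 0.994 to 1.09, and Cdc20 at 1.76 CPM against 0.0389 to 0.208. The macrophage markers of healthy placebo 4 summed to 508.0 CPM, against 35.2 to 109.5 CPM in the other healthy placebo libraries.

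Rrm2 was at 1.60 CPM in healthy inhibitor 1, against 0.344 to 0.423 CPM in the rest of its group, and at 1.16 CPM in injured inhibitor 3, against 0.594 to 0.669 CPM. Those libraries had the largest macrophage marker sums of their groups, at 159.3 and 145.5 CPM, but other sums stood out there too. Healthy inhibitor 1 was also highest of its group in joint lining (279.0), neutrophil and marrow precursor (19.5) and erythroid markers (452.4 CPM). Injured inhibitor 3 was also highest of its group in monocyte (8.67) and joint lining markers (90.6 CPM). A link of Rrm2 to any of these was not tested. Ube2c was lowest in injured inhibitor 2, at 23.8 CPM against 32.7 to 33.1 CPM. Tpx2 was lowest in healthy inhibitor 1, at 3.25 CPM against 4.78 to 4.92 CPM.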

How the results depend on the processing

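Genes called at an adjusted p under 0.05 numbered 0 by edgeR in each of the 5 comparisons. DESeq2 called 2 for injury with placebo, 1 for injury with inhibitor, 248 for the inhibitor in injured quadriceps (1 member, Mcm4) and 12 for the inhibitor in healthy quadriceps, and limma-voom with quality weights called 1229 for the inhibitor in injured quadriceps (4 members). Leaving out 1 library gave 0 to 3 genes for injury with placebo, 0 to 38 for the inhibitor in injured quadriceps (38 without injured placebo 4) and 0 to 1 for the inhibitor in healthy quadriceps, and no member.

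The median log2 difference of the members ran, over single libraries left out, from 0.35 to 1.51 for injury with placebo, -0.087 to 0.066 for injury with inhibitor, -1.56 to -0.68 for the inhibitor in injured and -0.47 to 0.075 for the inhibitor in healthy quadriceps, and -1.57 to -0.37 for the difference of the injury effects. Without the 3 libraries highest in macrophage markers it was -0.14 for injury with placebo, 0.19 and 0.074 for the inhibitor in injured and in healthy quadriceps, and 0.059 for the difference. Without the 4 highest in Prg4 it was -0.14, 0.19, -0.02 and 0.074 in that order. For injury with inhibitor limma-voom gave -0.029. The cause of these changes was not tested.

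With the replicate block (animal) the median was -0.013 for injury with inhibitor and -0.80 for the difference of the injury effects, and no call changed. With a replicate block (number only), which pairs different animals, the inhibitor comparison in injured quadriceps called 1 gene, with a member median of -1.06 and 7 members at an unadjusted p under 0.05.

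Of 1218 recomputed values of 14 single genes, 1116 kept their direction and their side of the threshold, 98 changed sign while uncalled, and 4 were called where edgeR had not (Mcm4 by both other tools, Smc2 and Smc4 by limma-voom). Counts of 3 or fewer limit the mitotic members outside the high libraries.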
